A study of Mus musculus with 8 samples.

Results

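The glutathione peroxidase family was followed across 8 arrays of mouse epididymal fat, 1 array per mouse. Its members were taken by gene symbol, Gpx1 to Gpx8, and each had a single probe set, so the 8 members are 8 of the 22180 genes that a probe set with 1 gene symbol measured. The family was chosen by the wide variation of Gpx5 between these mice, seen in its array values in both groups. The levels of Gpx5 and the likeness of other members to it are therefore descriptions and carry no test. The mice were male C57BL/6. From weaning (week 3) every mouse was fed fat as 45% of its energy, mostly of the n-6 type. Starting in week 6, 4 of them (GC+) received the synthetic glucocorticoid prednisolone daily for 4 weeks in sweet potato puree, at a dose that the labels write as 40 mg per kg per square metre, and 4 (GC-) received the puree alone. The left epididymal fat was sampled in week 10 as whole tissue. A group on another diet was not analysed here.

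Expression is given as RMA (robust multiarray average) values on the log2 scale, with array medians from 6.09 to 6.13. Depth has no meaning for arrays, and the number of arrays limits the precision. Of the 8 members, 7 lay in the brighter part of the genes that was tested, which begins at a mean of 5.82. Gpx6, with a mean over the 8 arrays of 6.03, was just inside that limit, and Gpx2, with a mean of 3.91, was outside it. Transcripts of the epididymis, the sperm-storing duct beside this fat pad, set some arrays apart from the others. The score of 15 tested epididymal epithelium genes (the mean of each value minus the gene's mean over the 8 arrays, with no glutathione peroxidase among them) was 3.21 in GC+ mouse 2, 2.64 in GC- mouse 1 and 1.31 in GC- mouse 4. It was 0.19 in GC+ mouse 1 and between -2.13 and -1.26 in the other 4 mice. The adipocyte marker Adipoq, which encodes adiponectin, read between 11.74 and 12.29 on every array.

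Glutathione peroxidases reduce hydrogen peroxide and organic hydroperoxides to water and alcohols, with glutathione as the electron donor. In the mouse, Gpx1, Gpx2, Gpx3 and Gpx4 encode selenoproteins with selenocysteine in the active site, and Gpx5, Gpx6, Gpx7 and Gpx8 encode proteins with cysteine in its place. In fat, peroxides arise from mitochondria, peroxisomes and polyunsaturated fatty acids, and Gpx4 acts on peroxides within membrane lipids. The head of the epididymis secretes Gpx5 into its lumen under androgen control.

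Gpx5 and Gpx6 are neighbours on chromosome 13, in RefSeq on assembly GRCm38.p6. The promoter table of RefSeq for that assembly matched all 8 members, with 11 promoters. The 250 bases before the start of Gpx5, of its neighbour Gpx6 and of Gpx3 are shown because Gpx6 and Gpx3 were the members most like Gpx5 over the arrays. Each is written 5′ to 3′ on the gene's strand, and capitals mark the CCAAT box (CCAAT, or ATTGG on the other strand) and the half-site of steroid receptors (AGAACA, or TGTTCT on the other strand).
Gpx5, chr13:21292687-21292936, minus strand: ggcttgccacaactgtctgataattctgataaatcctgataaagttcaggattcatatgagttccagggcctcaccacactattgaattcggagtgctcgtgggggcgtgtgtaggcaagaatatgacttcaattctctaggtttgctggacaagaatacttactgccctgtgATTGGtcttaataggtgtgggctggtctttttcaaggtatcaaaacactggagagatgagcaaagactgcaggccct
Gpx6, chr13:21311953-21312202, plus strand: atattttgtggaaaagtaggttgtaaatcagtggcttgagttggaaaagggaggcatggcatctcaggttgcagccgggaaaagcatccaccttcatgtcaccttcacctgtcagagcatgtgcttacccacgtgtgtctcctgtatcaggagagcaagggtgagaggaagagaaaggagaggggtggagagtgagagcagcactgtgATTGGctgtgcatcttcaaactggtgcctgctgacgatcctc
Gpx3, chr11:54902604-54902853, plus strand: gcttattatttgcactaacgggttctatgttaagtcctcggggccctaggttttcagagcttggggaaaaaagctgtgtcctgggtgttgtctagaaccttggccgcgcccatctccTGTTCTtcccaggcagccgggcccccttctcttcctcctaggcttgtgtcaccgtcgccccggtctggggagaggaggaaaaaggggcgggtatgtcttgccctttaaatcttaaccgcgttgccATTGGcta
The longest run of bases that the Gpx5 and Gpx6 sequences share is ctgtgattgg, 10 bases that include the CCAAT box, at position -82 from the start of Gpx5 and -47 from that of Gpx6. Runs were compared with 1 promoter per member. For Gpx4 this was the promoter at chr10:80046916-80047165, and its other promoters were not compared. On that basis 3 of the 28 pairs of members share a run of at least 10 bases. They are Gpx5 with Gpx6, Gpx3 with Gpx4 and, at 11 bases, Gpx7 with Gpx8. In windows of 300 bases (250 before the start and 50 after), 37.4% of 32851 promoters held a CCAAT box on either strand. So did 7 of the 11 member promoters, those of Gpx2, Gpx3, Gpx5 and Gpx6 and 3 of the 4 of Gpx4. Among the Gpx4 windows, 2 overlap and hold the same 3 boxes, so the 7 are not all separate sites. The steroid receptor half-site, which the glucocorticoid and androgen receptors share, was found in 2 of the 11, Gpx3 at position -133 and Gpx6 at position 40 after the start, against 19% of all promoters. The ETS site AGGAAG (or CTTCCT) was found in 4 of the 11, those of Gpx1, Gpx3 and Gpx6 and 1 of Gpx4, against 35.4% of all promoters. The core of the antioxidant response element (TGACNNNGC, either strand), found in 12.4% of promoters, and TATAAA, found in 13.6%, had no match in any of the 11 member windows. A match in such a short window is a description of letters and not a binding site.

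Gpx5 had the widest range over the arrays of all 14787 tested genes, 9.62 on the log2 scale. No fold is given, since its lowest values lay below the limit for dim genes. It read 13.81 in GC+ mouse 2, 11.27 in GC+ mouse 1, 4.76 in GC+ mouse 4 and 4.57 in GC+ mouse 3. In the GC- group it read 13.78 in mouse 1, 13.60 in mouse 4, 8.69 in mouse 3 and 4.19 in mouse 2. Each group thus held mice at both ends of the range, and 3 mice lay below the limit of 5.82 for dim genes. The spread within each group exceeded the difference between the group means, at 8.60 ± 4.67 in GC+ and 10.07 ± 4.57 in GC- mice (SD, n = 4). In whole tissue, fewer cells of a type and less RNA per cell cannot be told apart.

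Gpx6, known from olfactory tissue, was bright on 3 arrays and dim on 5. It read 7.78 in GC- mouse 1, 7.64 in GC+ mouse 2 and 6.87 in GC- mouse 4, the same 3 mice with Gpx5 above 13. In the other 5 mice it lay between 5.03 and 5.32. GC+ mouse 1, with Gpx5 at 11.27, read 5.20 for Gpx6, and GC- mouse 3, with Gpx5 at 8.69, read 5.28, so Gpx6 was at its low level on both arrays of intermediate Gpx5. Gpx5 and Gpx6 are related in sequence, and binding of Gpx5 RNA to the probes of Gpx6 was not tested. Group means were 5.83 ± 1.21 (GC+) and 6.24 ± 1.31 (GC-) (SD, n = 4).

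Gpx3 encodes the secreted plasma glutathione peroxidase. It read 10.52, 10.45, 10.10 and 10.12 in GC+ mice 1 to 4, and 10.86, 10.46, 10.49 and 11.14 in GC- mice 1 to 4. The 2 highest values were those of GC- mice 4 and 1, and the 2 lowest those of GC+ mice 3 and 4. GC+ mouse 2 shared the bright Gpx5 of GC- mice 1 and 4 and not their Gpx3, at 10.45 against 10.86 and 11.14. The groups overlapped, since GC+ mouse 1 lay above GC- mice 2 and 3.

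**Figure D1:**
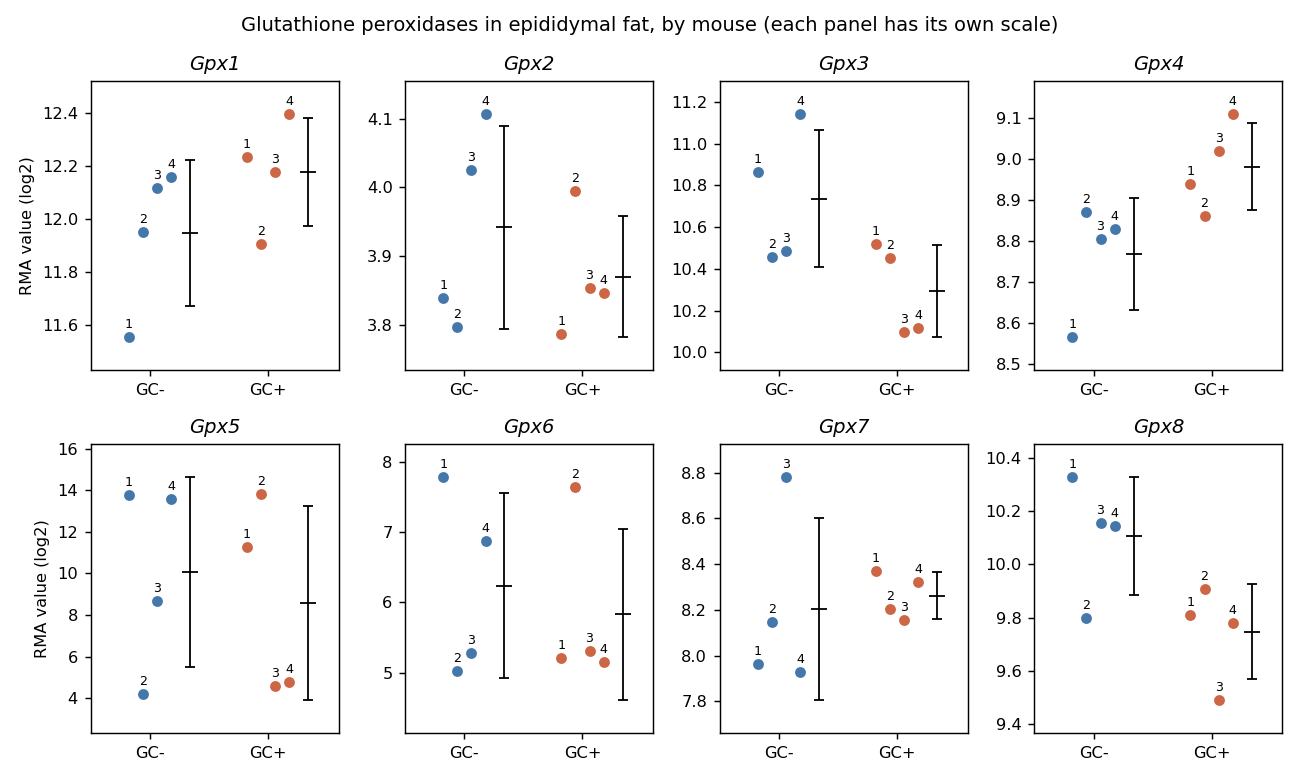
RMA values (log2) of the 8 members in each mouse, numbered by replicate, with the group mean and SD (n = 4) as bars beside the points; each panel has its own scale. Gpx5 ran from 4.19 to 13.81 with both groups spread over the range, while Gpx4 stayed between 8.57 and 9.11.

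Gpx1, the cytosolic and mitochondrial enzyme found in most cells, read 12.23, 11.91, 12.18 and 12.39 in GC+ mice 1 to 4 and 11.56, 11.95, 12.12 and 12.16 in GC- mice 1 to 4. Of the GC+ mice, 3 lay above every GC- mouse, and GC- mouse 1 lay below all others. Gpx4, the phospholipid hydroperoxide reductase whose loss permits ferroptosis, read 8.94, 8.86, 9.02 and 9.11 in GC+ mice 1 to 4. In GC- mice 1 to 4 it read 8.57, 8.87, 8.81 and 8.83. Again 3 GC+ mice lay above every GC- mouse and GC- mouse 1 was lowest, while GC+ mouse 2 lay just under GC- mouse 2. RefSeq lists the pseudogenes Gpx4-ps1 and Gpx4-ps2, and whether their RNA adds to the Gpx4 value was not tested. Gpx2, the enzyme of gut epithelium, lay between 3.79 and 4.11 on every array, below the limit for dim genes, and was not tested. The separate probe set for its pseudogene Gpx2-ps1 read between 4.40 and 5.71 and was also below that limit.

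Gpx7 and Gpx8 encode enzymes of the endoplasmic reticulum, where they take part in oxidative protein folding. Gpx8 read 9.81, 9.91, 9.49 and 9.78 in GC+ mice 1 to 4 and 10.33, 9.80, 10.15 and 10.14 in GC- mice 1 to 4. GC- mice 1, 3 and 4 lay above every GC+ mouse, and GC- mouse 2 lay among the GC+ values. Gpx7 kept to 8.15 to 8.37 in the GC+ group. In the GC- group it read 7.96, 8.15, 8.78 and 7.93 in mice 1 to 4, so the GC- mice held its 3 lowest values and, in mouse 3, its highest.

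The comparison of GC+ with GC- asks whether chronic glucocorticoid under this diet went with a different level of each peroxidase. No member passed. The p-values measure the spread between these 8 mice. By limma's moderated test with Benjamini-Hochberg adjustment over the 14787 tested genes, 0 of 7 tested members had an adjusted p below 0.05, as did 0% of all tested genes, with a lowest adjusted p of 0.713 over all genes. Of the members, 3 were higher on average in GC+ mice and 4 lower, beside 54.6% and 45.4% of all tested genes. The groups overlapped in all 7, while they did not overlap in 3.2% of tested genes. At an unadjusted p under 0.05 stood 2 members, Gpx3 and Gpx8, beside 5.69% of tested genes.

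Gpx3 averaged 10.30 ± 0.22 in GC+ and 10.74 ± 0.33 in GC- mice (SD, n = 4). The difference, GC+ minus GC- on the log2 scale, was -0.44 ± 0.18 (SE), with a 95% interval from -0.85 to -0.03 and a limma adjusted p of 0.768. Gpx8 averaged 9.75 ± 0.18 and 10.11 ± 0.22, a difference of -0.36 ± 0.13 with an interval from -0.67 to -0.05 and a limma adjusted p of 0.768. Both were thus 1.36-fold and 1.28-fold higher in GC- mice in these samples, without passing the adjustment.

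Gpx4 and Gpx1 stood the other way. Gpx4 averaged 8.98 ± 0.11 in GC+ and 8.77 ± 0.14 in GC- mice, a difference of 0.21 ± 0.09 with an interval from -0.002 to 0.43. Its limma adjusted p was 0.768. Gpx1 averaged 12.18 ± 0.20 and 11.95 ± 0.28, a difference of 0.23 ± 0.16 with an interval from -0.13 to 0.59 and a limma adjusted p of 0.769. These 4 members kept their direction in all 18 alternative fits. Differences ran from -0.54 to -0.23 for Gpx3, -0.46 to -0.27 for Gpx8, 0.15 to 0.25 for Gpx4 and 0.10 to 0.32 for Gpx1. Some of these fits could not move a member's difference. They changed only the filter on dim genes, the variance model, the replicate block or the choice among probe sets. The value nearest 0 for Gpx3, -0.23, came without the 3 mice of highest epididymal score, and that for Gpx1, 0.10, without GC- mouse 1. With the epididymal score as a covariate, the differences were -0.41 ± 0.12 for Gpx3, -0.34 ± 0.10 for Gpx8, 0.20 ± 0.07 for Gpx4 and 0.21 ± 0.13 for Gpx1 (SE). The limma adjusted p was 0.503 for Gpx3 and Gpx8 in that fit, and no member passed.

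The differences of Gpx5, Gpx6 and Gpx7 did not keep their direction in every alternative fit. The direction turned in 1 of 18 fits for Gpx5, 2 of 17 for Gpx6 and 3 of 18 for Gpx7. For Gpx5 it was -1.46 ± 2.78, with an interval from -7.83 to 4.90 that leaves room for a large change either way (limma adjusted p = 0.904). Without the 3 mice of highest epididymal score, which also held the highest Gpx5, it was 0.42. For Gpx6 it was -0.41 ± 0.76 (limma adjusted p = 0.902), and 0.10 without GC- mouse 1. For Gpx7 it was 0.06 ± 0.18 (limma adjusted p = 0.944), and 0.25 without GC- mouse 3, -0.02 without GC- mouse 1 and -0.03 without GC- mouse 4.

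**Figure D2:**
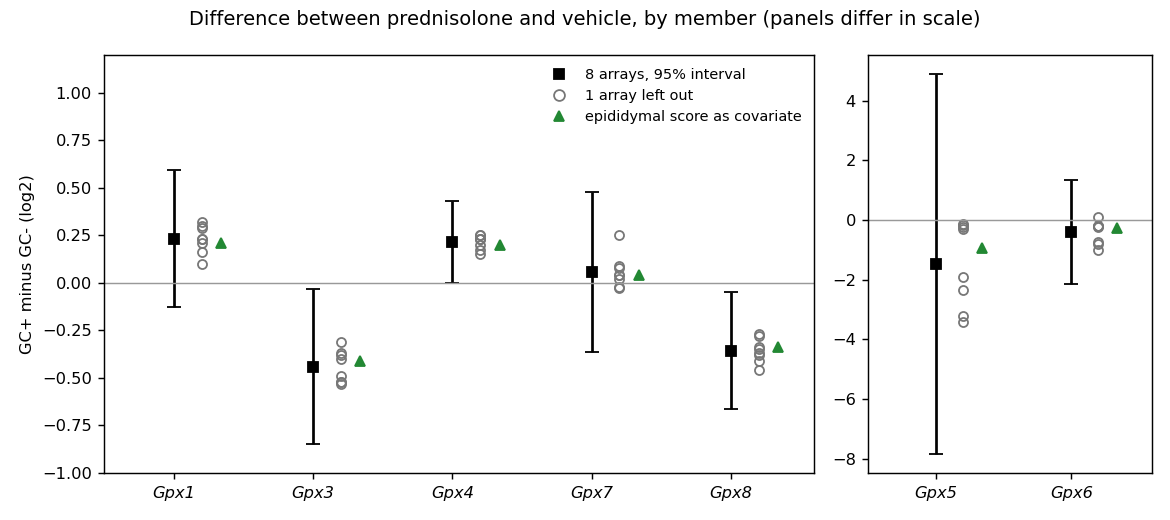
Difference GC+ minus GC- (log2) of the 7 tested members over 8 arrays with its 95% interval (squares), with 1 array left out (open circles) and with the epididymal score as a covariate (triangles); the 2 panels differ in scale. All points of Gpx3 and Gpx8 lie below 0 and all of Gpx1 and Gpx4 above it, while the interval of Gpx5 runs from -7.83 to 4.90.

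Which members followed Gpx5 over the 8 arrays is given by Pearson's r, as a measure of likeness only. The arrays fall into separate ranges of Gpx5, so r mainly reflects the mice at the ends, and all values come from the same 8 arrays. Gpx6 was most like Gpx5, with r = 0.83 (Spearman's rho 0.81), a value that 2.26% of tested genes reached. Gpx3 followed with r = 0.76 (rho 0.50; 5.07% of tested genes) and Gpx8 with r = 0.69 (rho 0.69; 7.86%). Gpx4 (r = -0.65) and Gpx1 (r = -0.48) ran the other way, and Gpx7 had the weakest likeness of the tested members, at r = -0.28. The arrays farthest from the median of Gpx5 were GC- mouse 2 and GC+ mouse 3, both at its low end (4.19 and 4.57). Without them r was 0.81 for Gpx6, 0.76 for Gpx3 and 0.49 for Gpx8. For Gpx4 it was -0.71, for Gpx1 -0.70 and for Gpx7 -0.60, so Gpx8 was then the weakest of the tested members. The mice of highest Gpx5 stayed in, so their weight in r was not examined by this step. Without GC+ mouse 2, which had the highest Gpx5, r was 0.87 for Gpx3, 0.79 for Gpx6 and 0.78 for Gpx8. Without GC- mouse 2 it was 0.83 for Gpx3 and 0.81 for Gpx6, and with any other mouse left out Gpx6 stayed highest. Taken as deviations from the group means, Gpx3 had r = 0.88 and Gpx6 and Gpx8 had 0.82 each. Which member was most like Gpx5 thus depended on the arrays and the measure. Over all tested genes the median r with Gpx5 was -0.17, and 16.9% of them had an absolute r above 0.7. The size of the change set the followers far apart, since per unit of Gpx5 on the log2 scale Gpx6 differed by 0.23, Gpx3 by 0.06 and Gpx8 by 0.04.

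**Figure D3:**
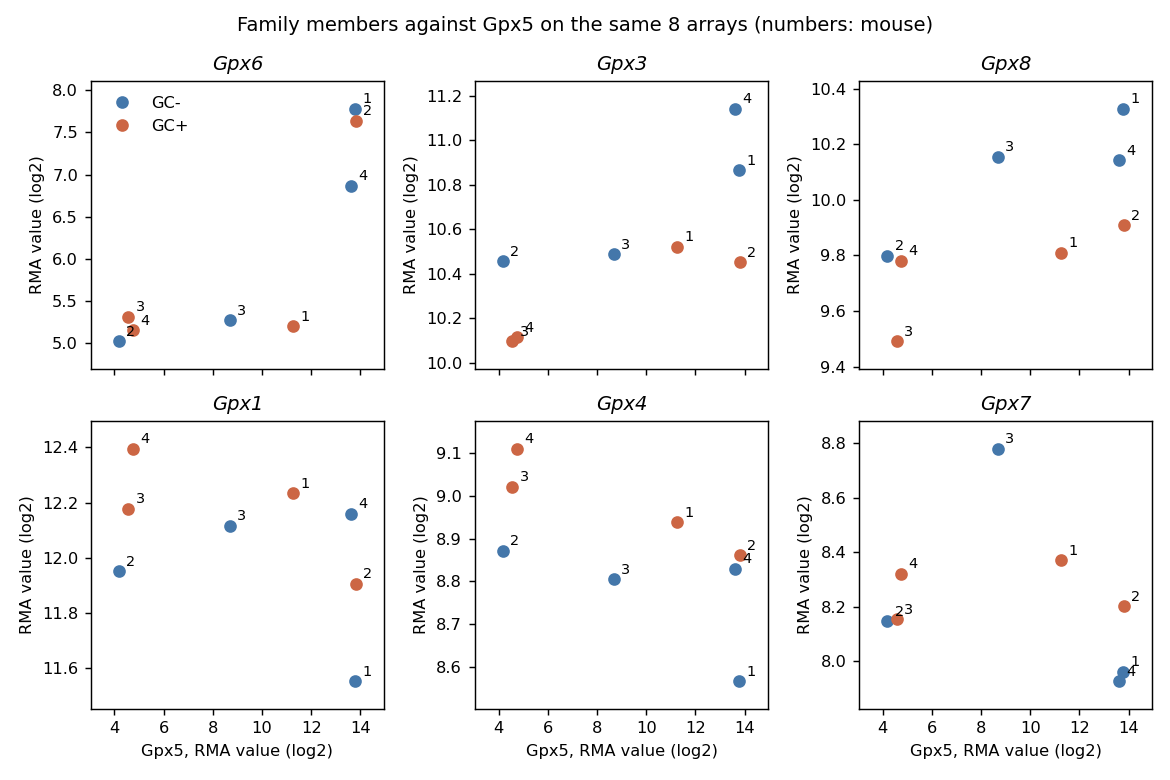
RMA values (log2) of 6 members against Gpx5 on the same arrays, GC- in blue and GC+ in orange, numbered by mouse. Gpx6 is at 5.03 to 5.32 in the 5 mice with lower Gpx5 and at 6.87 to 7.78 in the 3 mice with Gpx5 above 13; Gpx3 is high in only 2 of those 3.

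Among named genes outside the family, Tada2a, a transcriptional adaptor, and the phosphatase Ssh3 had the highest r with Gpx5 (0.98 each) but ranges of only 0.29 and 0.18. The next were genes of large range, Adam7 (r = 0.96), an epididymal membrane protein that read from 5.08 to 13.57, Cuzd1 (0.96) from 5.35 to 12.99 and the beta-defensin Defb20 (0.96) from 5.33 to 12.75. Closest to Gpx6 were Derl3, a factor of endoplasmic reticulum degradation, the beta-defensin Defb47 and the crystallin gene Cryba4. Defb47 read 10.85, 10.59 and 9.80 in the 3 mice with bright Gpx6 and between 6.58 and 7.12 in the others. Closest to Gpx3 were the clock repressor Nr1d2 (r = 0.98), with 8.65 in GC- mouse 4 and 7.64 in GC+ mouse 3, the zinc finger gene Zxdb and the phosphatase regulator Tiprl.

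The epididymis expresses its lipocalins in different segments, and the members were compared with a pair of them. Lcn5 read 13.82 and 13.64 in GC- mice 1 and 4 and 10.22 in GC+ mouse 2, whereas Lcn8 read 13.51 in GC+ mouse 2, 9.52 in GC- mouse 1 and 6.64 in GC- mouse 4. Gpx3 was alike to Lcn5 (r = 0.85, reached by 5.82% of tested genes) and not to Lcn8 (r = 0.19, reached by 27%). Gpx8 was likewise nearer to Lcn5 (0.75, reached by 10.4%) than to Lcn8 (0.27, reached by 21.4%). Gpx5 and Gpx6 went with both lipocalins. With Lcn5 they had r = 0.85 and 0.86, reached by 6.02% and 5.56% of tested genes. With Lcn8 they had 0.73 and 0.70, reached by 2.35% and 2.95%. The difference between such values was not tested.

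Marker lists of other cell types moved with single members, and their part in the group differences was not tested. Gpx4 followed the score of 11 adipocyte genes (r = 0.92, reached by 0.67% of tested genes), and so did Gpx1 (r = 0.77, reached by 7.8%). Running against that score were Gpx8 (r = -0.89), Gpx5 (-0.80), Gpx6 (-0.79) and Gpx3 (-0.68). Of tested genes, 1.24%, 5.27%, 5.73% and 11.9% were as far in that direction. That score ran from -0.07 to 0.15 in GC+ and from -0.29 to 0.13 in GC- mice, lowest in GC- mouse 1, where Gpx1 and Gpx4 were lowest as well. Gpx7 followed the adipose progenitor score of 6 genes (r = 0.90), the mesothelium score of 6 genes (r = 0.85) and the macrophage score of 8 genes (r = 0.85). These values were reached by 0.52%, 0.72% and 3.23% of tested genes. GC- mouse 3, which held the highest Gpx7, also held the highest value of these 3 scores, at 0.46, 1.23 and 0.64. The progenitor score otherwise ran from -0.23 to 0.18. Gpx5 and Gpx6 followed the epididymal score with r = 0.94 each, and the smooth muscle score of 5 genes with 0.70 and 0.75. Taken singly, the 5 smooth muscle genes had r with Gpx5 from -0.30 to 0.90 (median 0.23). Only 1 of them was above 0.7, so the score does not speak for the list as a whole. With the spermatid score no member had an absolute r above 0.53, and with the endothelial score none above 0.63. In these lists no measured marker was below 5.82 on every array. Erythroid cells, a rich source of Gpx1, were covered by a single tested marker of the 6 listed, Slc4a1, so their share was not assessed.

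**Figure D4:**
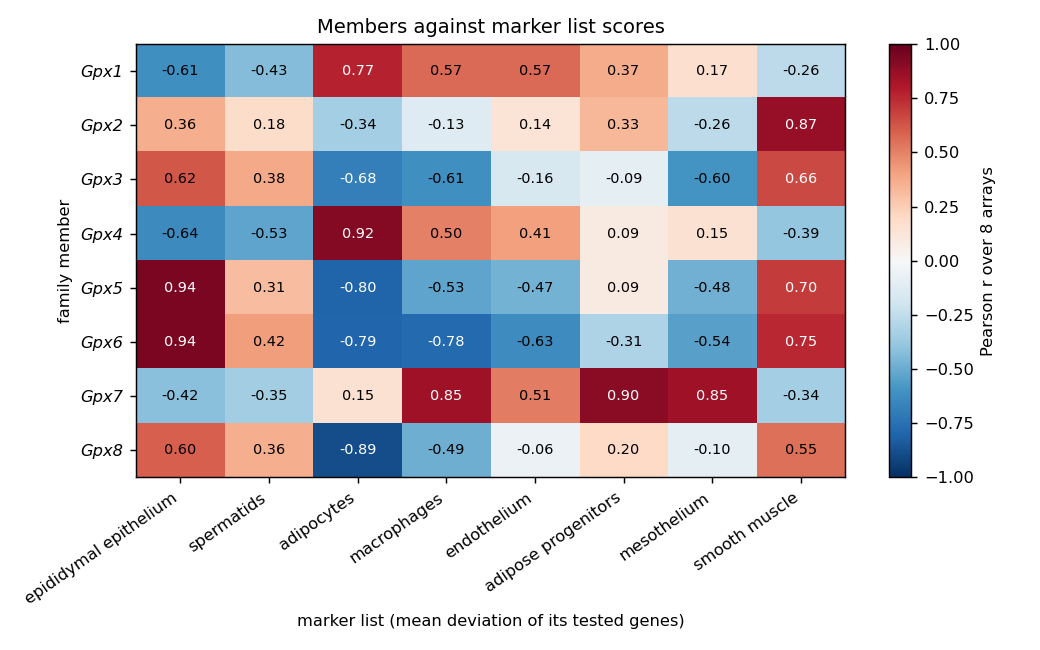
Pearson's r over the 8 arrays between each member (rows) and the mean deviation of each marker list (columns), from blue at -1 to red at 1. Gpx5 and Gpx6 reach 0.94 with the epididymal epithelium, Gpx4 reaches 0.92 with adipocytes and Gpx7 reaches 0.90 with adipose progenitors.

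The rest of the glutathione and peroxide system was read from 7 lists of pathway genes with 87 tested genes in all. By the same limma fit 0 of the 87 passed in either direction, 55 were higher and 32 lower in GC+ mice, where 54.6% of all tested genes were higher. In 2 of them, Gsto1 and Sepsecs, the groups did not overlap, as in 3.2% of all tested genes, so that count does not stand above the background. Their median difference was 0.04, beside 0.02 for all tested genes and -0.36 for the 7 members. Enzymes of glutathione synthesis and recycling were higher for 11 of 16 members, with a median of 0.12. Gss, glutathione synthetase, averaged 7.75 against 7.48 (0.27 ± 0.12), and Anpep, an aminopeptidase of glutathione breakdown, 9.37 against 9.03 (0.34 ± 0.13).

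Glutathione S-transferases, which join glutathione to other molecules, were higher for 8 of 16 and lower for 8. Gsto1, the omega-class enzyme, read 9.98, 9.76, 10.32 and 10.30 in GC+ mice 1 to 4 and 9.44, 9.47, 9.59 and 9.36 in GC- mice 1 to 4. Every GC+ mouse lay above every GC- mouse, with a difference of 0.62 ± 0.13 and a limma adjusted p of 0.768. Gsta4, which detoxifies lipid aldehydes, averaged 8.45 against 8.83 (-0.38 ± 0.15).

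The other peroxide and superoxide enzymes (median 0.03, 9 of 13 higher) held catalase, Cat, at 13.31 against 13.16 (0.16 ± 0.11) and the secreted superoxide dismutase Sod3 at 11.56 against 11.28 (0.28 ± 0.17). Of the other selenoproteins 8 of 13 were higher (median 0.04), with Selenow at 11.43 against 11.11 (0.32 ± 0.16) and the methionine sulfoxide reductase Msrb1 at 0.12 ± 0.09. The machinery that makes and inserts selenocysteine had a median of 0.00, with 6 of 11 higher. Its member Sepsecs, which forms selenocysteine on its tRNA, averaged 8.72 against 8.53 (0.18 ± 0.08) with groups apart, and Scly, a selenocysteine lyase, differed by 0.17 ± 0.09.

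Genes of lipid peroxidation, some acting with Gpx4 and some against it, were higher for 7 of 10 (median 0.14). Aifm2, which encodes the ferroptosis suppressor FSP1, averaged 9.84 against 9.41 (0.42 ± 0.16), and Acsl4, which loads polyunsaturated fatty acids into phospholipids, 8.51 against 9.14 (-0.63 ± 0.27). Acsl4 was highest in GC- mice 1 and 4, at 9.89 and 9.34. In the NRF2 pathway, the antioxidant response, 6 of 8 were higher (median 0.05). Nqo1 averaged 6.91 against 7.55 (-0.65 ± 0.35), also with its highest values in GC- mice 1 and 4 (8.40 and 8.00). Without the 3 mice of highest epididymal score, the difference was -0.02 for Nqo1 and -0.23 for Acsl4. The ferritin gene Fth1 differed by 0.11 ± 0.09 over all 8 mice. Each of the 14 genes named from these lists had a limma adjusted p between 0.768 and 0.779.

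Some of these pathway genes followed Gpx5 as well. Gstt3 (r = 0.92), Alox12 (0.91), Glrx (0.86), Gstm7 (0.86), Selenos (0.84) and Gclc (0.71) ran with it. Gstm7, a mu-class transferase, read 11.62 and 11.34 in GC- mice 1 and 4, 10.34 in GC+ mouse 2 and at most 8.58 in the other 5 mice. Its group difference was -0.91 ± 1.05. Txnrd2 (r = -0.92), Glrx3 (-0.85), Selenow (-0.80), Aifm2 (-0.78), Cat (-0.78), Msrb1 (-0.76), Ncoa4 (-0.72) and Gsta3 (-0.71) ran against it. All 11 adipocyte markers had a negative r too, between -0.84 and -0.35, with 3 of them below -0.7. The same sign held for all 8 macrophage markers (-0.79 to -0.34) and all 7 endothelial markers (-0.54 to -0.29). Of all tested genes, 40.4% had a positive r with Gpx5. These 14 pathway genes were chosen after their values were seen, as those with an absolute r above 0.7, a level that 16.9% of all tested genes passed.

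The neighbours of the members on their chromosomes were compared in the same way. Trim27, on the other side of Gpx5 from Gpx6, read between 7.78 and 8.31 on the 8 arrays (r = 0.63 with Gpx5), and the olfactory receptor gene Olfr1367 beyond Gpx6 between 4.82 and 5.17. Neither approached the range of Gpx6. Hint1 and Tnip1 beside Gpx3 read between 9.05 and 9.54 and between 7.89 and 8.25. Within the family, Gpx1 and Gpx4 were the pair most alike (r = 0.89), followed by Gpx5 and Gpx6 (0.83) and Gpx3 and Gpx8 (0.79), and Gpx4 and Gpx8 were the most opposed (-0.84).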

How the data were processed

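Total RNA (100 ng) of whole epididymal fat was hybridised to Affymetrix Mouse Gene 2.0 ST arrays, per the labels. Sample descriptions credit RMA, run in Expression Console (Affymetrix), and the deposited values are on its log2 scale. RMA equalises the distributions of arrays and compresses differences at low signal. Partek 6.6 is named without a role in the submitters' processing notes. For the array, annotation version and build were not given in the sources used here. Coordinates belong to the RefSeq promoter table alone.

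Of 41345 probe sets, 23521 had 1 gene symbol in GEO's platform annotation, 1814 several and 16010 none; 23328 were matched to RefSeq by Entrez identifier. Each gene took its probe set of highest mean (22180 genes), and the dimmest 33.3% were left out. GC+ and GC- (4 mice each) were compared with limma 3.58.1 in R 4.3.3, with lmFit and eBayes, no covariate and Benjamini-Hochberg adjustment. The test was first tested on simulated data. Figures used matplotlib 3.10.9.

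The members, gene lists and tests were chosen with earlier results of these data known. Genes named are the 8 members, the 5 genes of highest r with Gpx5, 3 each for Gpx3 and Gpx6, 2 of lowest p in each pathway list, fixed markers, chromosome neighbours and, chosen afterwards, pathway genes with an absolute r above 0.7. Predicted genes and small RNAs were not named. Alternatives changed the filter, normalization, probe set rule, variance model, array weights, block, covariate and arrays.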

Additional observations from a re-analysis of the deposited data

Results flagged for a closer look

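Among 42 genes named here, each examined in both groups (84 groups of 4 mice), 6 had 1 mouse set far from the other 3, where chance gives about 1 in 20 groups. Gpx6 read 7.64 in GC+ mouse 2, against 5.16 to 5.32 in the other GC+ mice. The 3 genes named as most like Gpx6 showed the same mouse apart: Derl3 read 8.82 there against 5.97 to 6.30, Defb47 10.59 against 6.71 to 7.12, and Cryba4 9.57 against 6.36 to 6.77. They were chosen for that likeness, so they add no separate evidence. The same mouse had the highest epididymal epithelium score, 3.21. The ferritin gene Fth1 read 13.37 in GC- mouse 1, against 13.60 to 13.64 in the other GC- mice. The sperm tail gene Odf1 read 12.92 in GC+ mouse 3, against 12.81 to 12.83.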

How the results depend on the processing

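In each of the 18 alternative fits 0 genes passed limma's adjusted threshold, over all genes, the members or the pathway lists. The lowest limma adjusted p over all genes varied widely. It was 0.0573 with the epididymal score as covariate, 0.241 without GC+ mouse 3 and at most 0.979, without GC- mouse 4. The count at an unadjusted p under 0.05 ran from 436 to 1980, beside 842. Of 125 member differences under these alternatives 119 kept their direction and 6 turned. Many of the 119 could not turn, because the filter, variance model, replicate block and probe set rule leave a member's difference unchanged. Without the 3 mice of highest epididymal score, Gpx5 stood at 0.42, Gpx6 at 0.07 and Gpx7 at -0.18. Without GC- mouse 1, Gpx6 stood at 0.10 and Gpx7 at -0.02, and without GC- mouse 4, Gpx7 stood at -0.03. The cause was not tested. With 1 mouse left out in turn, Gpx5 ran from -3.42 to -0.12, Gpx6 from -1.01 to 0.10 and Gpx7 from -0.03 to 0.25. With a stricter filter on dim genes, Gpx6 was not tested. With no filter Gpx2 was tested and differed by -0.07. Of the 6 tested members other than Gpx5, 3 had a positive r with Gpx5 under every alternative. Gpx2, which was dim, had r = 0.48 and was not counted. This count covers signs only, and the sizes of r and their order moved.

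Whether the replicate numbers pair mice could not be decided from the values. Deviations from the group means correlated between -0.58 and 0.13 for same-numbered mice and between -0.50 and 0.57 for other-numbered mice. Such deviations sum to 0 within each group of 4, so these correlations are not independent. With the number as a replicate block, 0 genes passed and 504 had an unadjusted p under 0.05. Low signal limits what can be said of Gpx2 and of Gpx6 in its 5 dim mice.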
